A study of Mus musculus with 19 samples.

Results

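The arrays described here are the 11 of 19 tibialis anterior arrays in this series that carried almost no signal from the Bacillus subtilis dap spike-in, a bacterial transcript that laboratories add to RNA as a control for the labelling reaction. They were chosen by a measured value, a deposited signal under 100 for the 3' dap probe set, which is given as a description and was not tested. The highest such value among the 11 was 17.4 and the lowest among the other 8 was 1184, so no array lay near the limit. Of the 11, 5 came from wild-type muscle of mice aged 7 to 9 weeks (WT_Adult), 2 from desmin knockout muscle of the same age (KO_Adult) and 4 from knockout muscle of mice aged 12 to 14 months (KO_Aged). The strain is labelled 129/SVE, the knockout genotype is labelled Des(-/-), and every muscle had undergone 50 eccentric contractions 12 h before its RNA was taken. Unexercised muscle is not analysed here, so each value is that of an exercised muscle. The labels do not say that each array is a separate animal, so the p-values measure the spread between arrays. KO_Aged was compared with younger wild-type muscle, so there age and genotype cannot be told apart. The other 8 arrays, all with strong control signal, are 5 of older wild-type muscle (WT_Aged) and 3 of KO_Adult muscle. In that set the knockout is the younger group.

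Desmin is the intermediate filament of muscle. It rings the Z-discs, links neighbouring myofibrils to each other, to the nuclei and mitochondria and to the costameres at the fibre surface, and is also made by smooth muscle cells and pericytes. Eccentric contraction, in which an active muscle is lengthened, strains these links. The question put to the 11 arrays was which genes differed from wild-type muscle in the same direction in younger and in older muscle without desmin.

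The deposited values are MAS5 intensities, the brightness of a probe set on a linear scale. They were turned to log2 after a small constant was added, normalized within the 11 arrays (and apart from them within the other 8), and tested with limma over 7436 genes; a gene is called here when its Benjamini-Hochberg adjusted p is under 0.05. A difference is on that log2 scale with its standard error (SE), and a fold is 2 raised to it. The Y-linked genes Eif2s3y, Kdm5d and Uty read up to 46.7 over the 19 arrays, so where one group of a gene lies near or under that level the difference depends on the constant added, and no fold is given. All 10 skeletal muscle markers were tested and none was called in any comparison, with summed intensities of 197200 to 341200 in WT_Adult, 206200 to 229900 in KO_Adult and 222400 to 256100 in KO_Aged. Arrays of one group correlated at 0.931 to 0.971 for WT_Adult, 0.965 for KO_Adult and 0.920 to 0.954 for KO_Aged. In KO_Aged replicates 2 and 3 the 3' probe set of Gapdh was 8.61 and 5.01 times as bright as the 5' one, a sign of RNA quality, against 0.766 to 0.968 on the other 17 arrays of the series. The first principal component, 35.1% of the variance, ran from -33.7 to -7.54 in WT_Adult and from 25.9 to 39.4 in KO_Aged, with KO_Adult at -12.9 and -4.39. The second, 31.7%, set WT_Adult 4 and 5 and KO_Aged 1 and 4 apart from the rest. The shared genes and the gene lists were counted again without the first pair and without these 4.

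**Figure D1:**
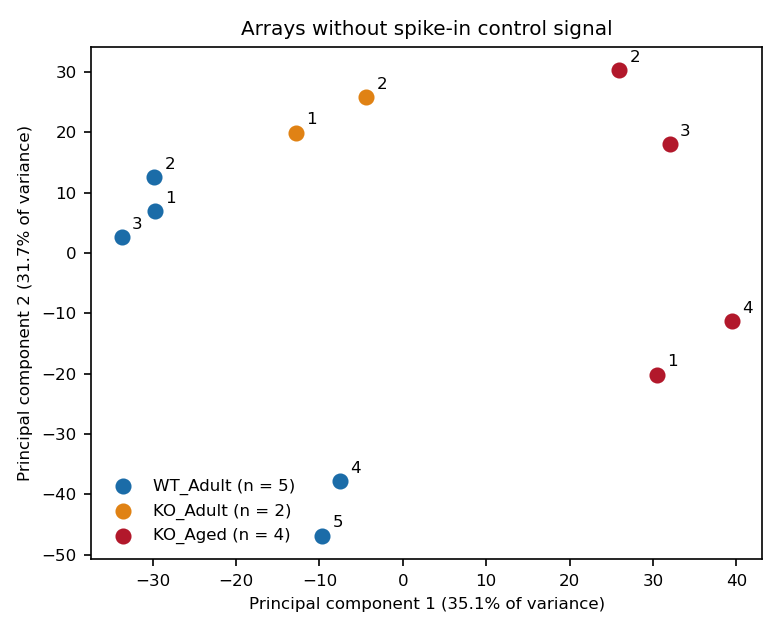
The 11 arrays on their first (horizontal) and second (vertical) principal component, in units of log2 expression, coloured by group and numbered by replicate. WT_Adult and KO_Aged separate along the first component, and WT_Adult 4 and 5 with KO_Aged 1 and 4 lie below the others on the second.

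The targeted transcript followed the labels on every array. The Des probe set read 13700, 14090, 22310, 19610 and 22240 in WT_Adult 1 to 5, 879 and 311 in KO_Adult 1 and 2, and 637, 72.8, 295 and 397 in KO_Aged 1 to 4. The lowest wild-type array was thus far above the highest knockout array. An exact 2-sided permutation test over all regroupings of the 6 knockout and 5 wild-type arrays gave p = 0.00216, the smallest this design allows. In the fit, Des was 29.8-fold lower in KO_Adult (-4.90, SE 0.56) and 58.7-fold lower in KO_Aged (-5.87, SE 0.45).

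Between KO_Adult and WT_Adult limma called 111 genes, 1.49% of those tested, of which 61 (0.82%) were higher and 50 (0.672%) lower in the knockout. Between KO_Aged and WT_Adult it called 1594 genes (21.4%), 795 higher and 799 lower, each 10.7%. The median SE was 0.279 with 2 KO_Adult arrays and 0.224 with 4 KO_Aged arrays, and at an unadjusted p under 0.05 the counts were 1299 and 2643. Both comparisons share the 5 WT_Adult arrays, so what is high or low on those arrays enters both. Called in the same direction in both were 100 genes (1.34%), 57 higher (0.767%) and 43 lower (0.578%) in the knockout, and none was called in opposite directions. After median centring in place of quantile normalization the shared genes numbered 73, with 53 higher and 20 lower, so the share that was higher depended on the scaling. In 96 of the 100 the 6 knockout and 5 wild-type arrays did not overlap. Over all tested genes 665 (8.94%) did not overlap, 358 (4.81%) with the knockout higher and 307 (4.13%) with it lower.

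For the mean of both knockout groups against WT_Adult 855 genes (11.5%) were called, 449 higher (6.04%) and 406 lower (5.46%) in the knockout. None of the 100 shared genes was called between the 2 knockout ages. Only 5 of all 7436 genes (0.0672%) were called there, so this says little about the 100. The shared count rested most on the 2 KO_Adult arrays: it was 22 without KO_Adult 1 and 10 without KO_Adult 2, and 48 without WT_Adult 3 and 50 without WT_Adult 4. The genes called in both comparisons whichever of the 11 arrays was left out were 10: Sln, Fetub, Serpinb6a, Fst, Ift122, Plp2 and Rab13, all higher, and Actc1, Ybx2 and Fgf1, all lower. With the KO_Adult arrays both kept, 41 of the 100 were called under every omission of another array. All 100 kept their sign in both comparisons under all 11 omissions. They had been picked by their calls on these same arrays, so a kept sign is no separate support. With KO_Aged 2 and 3, the arrays of high Gapdh ratio, left out, 77 genes were shared, 65 of them among the 100. With the 4 arrays apart on the second component left out there were 88, with 64 among the 100.

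The 8 arrays with control signal share no array with these comparisons. Among them limma called 1210 of the same genes between KO_Adult and WT_Aged (16.3%), 626 higher (8.42%) and 584 lower (7.85%). Of the 100 shared genes, 94 had the same sign there, 54 of the 57 higher ones and 40 of the 43 lower ones, where 54.4% of all tested genes were above 0 and 45.6% below. Called in the same direction were 76, 43 of 57 higher and 33 of 43 lower, and none was called the other way. The genes whose sign turned were Aig1, Evi2a, Cyfip2, Deaf1, Sytl2 and Isoc1, and none of the 6 was called there.

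**Figure D2:**
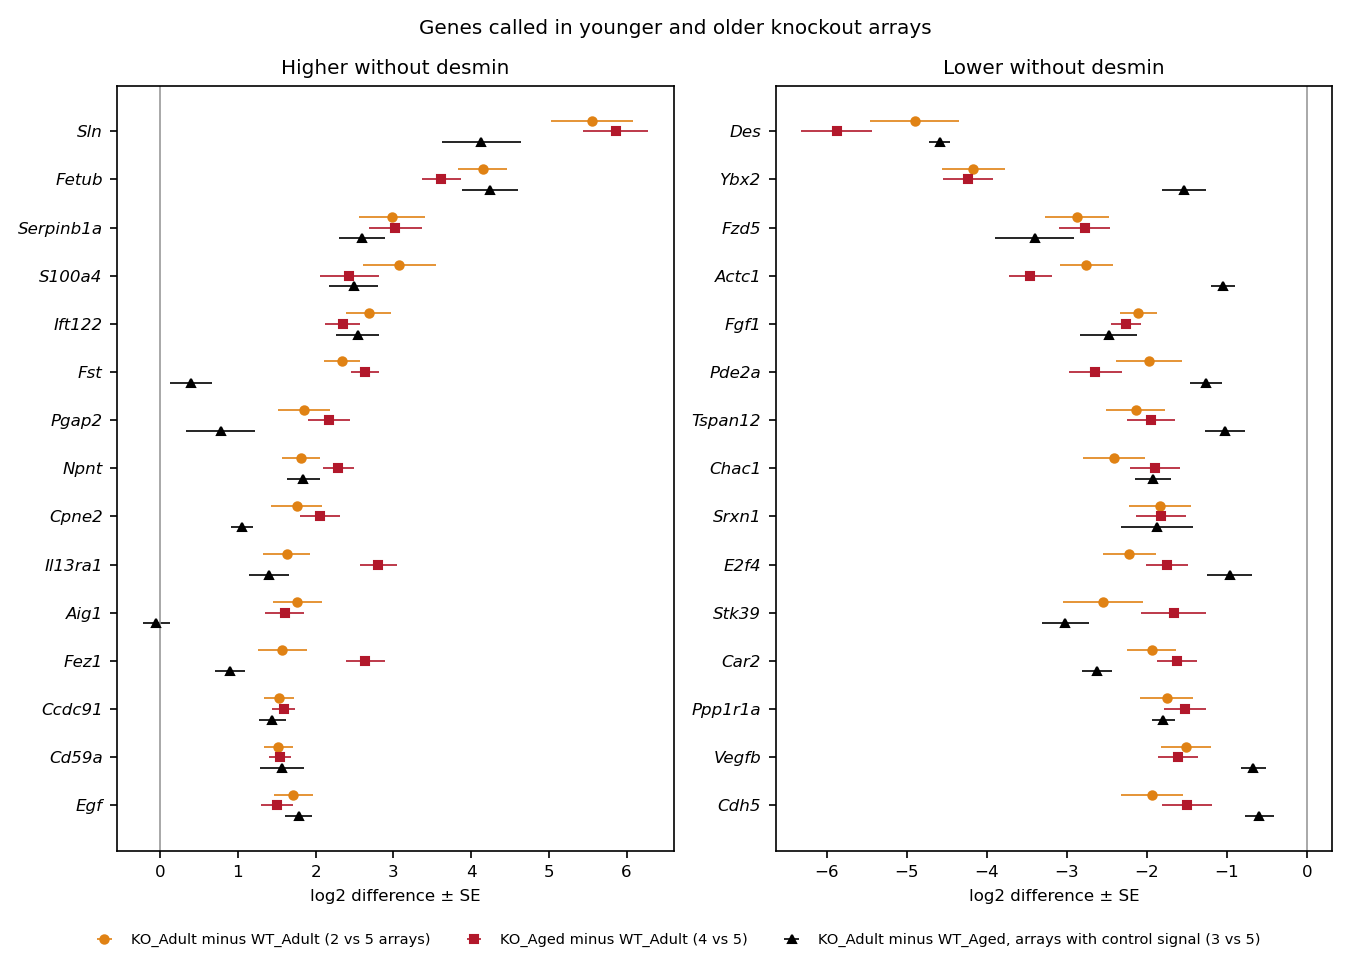
Log2 difference from wild-type muscle, with SE, for the 15 shared genes with the largest rises (left) and the 15 with the largest falls (right), in KO_Adult against WT_Adult (2 against 5 arrays), KO_Aged against WT_Adult (4 against 5) and, on the arrays with control signal, KO_Adult against WT_Aged (3 against 5). Sln and Fetub lie farthest to the right and Des and Ybx2 farthest to the left, and Fst and Aig1 lie near 0 in the third comparison only.

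Sarcolipin showed the largest rise among the shared genes. It is a small membrane protein of the sarcoplasmic reticulum that binds the SERCA calcium pump and lowers its efficiency, and in mice it is scarce in adult fast muscle. Sln read 546, 457, 121, 159 and 190 in WT_Adult 1 to 5, 11540 and 13840 in KO_Adult 1 and 2, and 10210, 13440, 16710 and 14610 in KO_Aged 1 to 4. No knockout array came near a wild-type one, and the 2 knockout ages overlapped. The rise was 47.1-fold in KO_Adult (5.56, SE 0.53, adjusted p = 0.000544) and 58.0-fold in KO_Aged (5.86, SE 0.42, adjusted p = 2.01e-05), both with limma. Sln on the arrays with control signal read 189 to 1231 in WT_Aged and 7678 to 10700 in KO_Adult, a 17.5-fold rise (4.13, SE 0.51).

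Other proteins of calcium release and of slow fibres rose less. Casq2, the calsequestrin isoform of heart and slow fibres that stores calcium in the reticulum, read 960, 661, 983, 1253 and 715 in WT_Adult, 1900 and 2963 in KO_Adult, and 1945, 3149, 2358 and 2199 in KO_Aged. It was 2.61-fold higher in each knockout group (1.38, SE 0.28, and 1.38, SE 0.23), but the shared call held under only 3 of the 11 omissions of an array. Cacng1, a subunit of the voltage-gated calcium channel of the T-tubule, read 2549 to 3392 in WT_Adult and 5014 to 7185 over the 6 knockout arrays. Its difference was 1.03 (SE 0.17) in KO_Adult, 1.0 (SE 0.14) in KO_Aged and 1.01 (SE 0.11) on the arrays with control signal. Myoz2, calsarcin of the slow-fibre Z-disc, which binds calcineurin, read 4212 to 8074 in WT_Adult and 11180 to 16910 over the knockout arrays. It rose 2.37-fold and 2.17-fold, and 4.86-fold with 3 against 5 arrays on the others.

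Of 20 calcium handling genes tested these 3 (Sln, Casq2 and Cacng1) were shared, all higher. In KO_Aged 4 were higher and 4 lower, with a median difference of -0.05 against 0.05 for all genes tested, and in KO_Adult 3 were higher with a median of -0.09 against 0.04. Of all genes 0.767% were shared and higher, and 10.7% were called each way in KO_Aged. The shared count was 1 without either KO_Adult array, and the 4 lower in KO_Aged became 1 without KO_Aged 2 and 3. On the arrays with control signal 9 of the 20 were higher and 1 lower, against 8.42% and 7.85% of all genes. The list's median there was 0.51, with 17 above 0, against a median of 0.04 for all genes. Rcan1, an inhibitor of calcineurin, was lower in KO_Aged (-1.04, SE 0.21, adjusted p = 0.00611 with limma) and missed the threshold in KO_Adult (-0.96, SE 0.26, adjusted p = 0.0941). Jph1, a junctophilin that holds the T-tubule to the reticulum, read 758 to 2350 in WT_Adult, 595 and 644 in KO_Adult and 205 to 962 in KO_Aged, so the groups overlapped. It was called in KO_Aged (-1.77, SE 0.42) and not in KO_Adult (-1.03, SE 0.52). Without KO_Aged 2 and 3 the mean of both knockout groups lost its call for Jph1 (adjusted p = 0.0887 with limma).

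Among the 13 slow fibre genes tested, 3 were shared and higher (Sln, Casq2 and Myoz2), and 9 were higher in KO_Aged, none lower, with medians of 0.50 in KO_Adult and 2.49 in KO_Aged against 0.04 and 0.05 over all genes. The shares over all genes were 0.767% shared and higher and 10.7% higher in KO_Aged. The shared count was 2 without the 4 arrays apart on the second component, and 1 without WT_Adult 5, KO_Adult 1 or KO_Adult 2. Tnnt1, slow troponin T, read 104 to 282 in WT_Adult, 857 and 369 in KO_Adult, and 1180 to 3108 in KO_Aged. It was called in KO_Aged (3.46, SE 0.39) and not in KO_Adult (1.78, SE 0.48, adjusted p = 0.0941 with limma), although no knockout array fell within the wild-type range. Tnnc1, slow troponin C, gave 2.57 (SE 0.43) in KO_Aged and 1.64 (SE 0.54) in KO_Adult, and Atp2a2, the SERCA pump of slow fibres, 2.49 (SE 0.29) and 0.50 (SE 0.36), both called in KO_Aged alone. Their difference between the 2 knockout ages missed the threshold, with adjusted p = 0.114 for Tnnt1 and 0.0562 for Atp2a2 from limma. On the arrays with control signal, where the knockout was the younger group, 4 slow fibre genes were higher and 2 lower. The list's median there was 0.76, with 11 of the 13 above 0, against a median of 0.04 for all genes. Of all genes 8.42% were higher and 7.85% lower there.

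**Figure D3:**
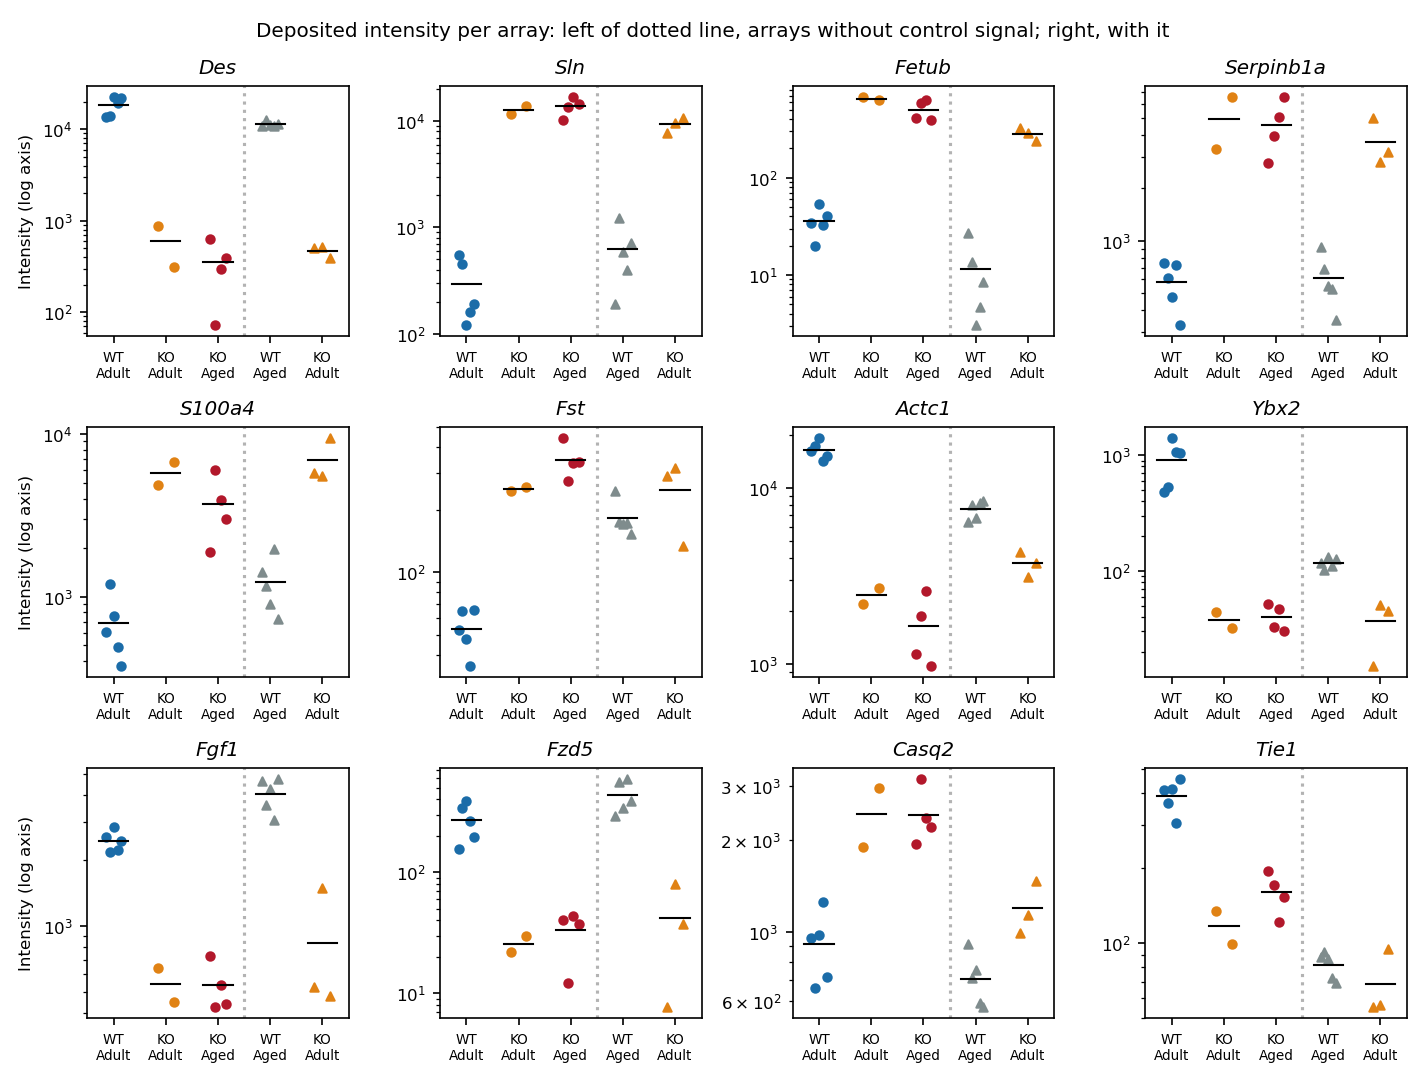
Deposited intensity on a log axis for Des and 11 other named genes, 1 point per array, with a bar at the mean of each group. To the left of the dotted line are WT_Adult (n = 5), KO_Adult (n = 2) and KO_Aged (n = 4) without control signal, and to the right WT_Aged (n = 5) and KO_Adult (n = 3) with it. For these 12 genes no knockout array on the left lies within the wild-type range. On the right, the groups overlap for Fst and Tie1.

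Protease inhibitors and S100 proteins made up a second group of shared rises. Fetub, a secreted protease inhibitor of the cystatin family known mainly as a liver product, read 34.5, 20.1, 53.3, 32.6 and 40.4 in WT_Adult, 671 and 630 in KO_Adult, and 411, 586, 624 and 389 in KO_Aged. The wild-type values were dim and the knockout values all at 389 or more. The difference was 4.15 (SE 0.31) in KO_Adult and 3.61 (SE 0.25) in KO_Aged, with adjusted p = 0.000134 and 1.81e-05 from limma, and 4.25 (SE 0.36) on the arrays with control signal. Serpinb1a, an intracellular inhibitor of neutrophil proteases, read 741, 613, 476, 730 and 330 in WT_Adult, 3311 and 6545 in KO_Adult, and 2784, 3943, 5031 and 6547 in KO_Aged. All knockout arrays were above all wild-type ones, at 7.9-fold and 8.15-fold on average.

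Serpinb6a, a related intracellular inhibitor, read 3055 to 4633 in WT_Adult and 9254 to 13600 over the knockout arrays (1.68, SE 0.19, and 1.49, SE 0.15). S100a4, a calcium-binding protein abundant in motile cells and fibroblasts, read 606, 1192, 759, 487 and 374 in WT_Adult, 4822 and 6714 in KO_Adult, and 1875, 6022, 3909 and 3007 in KO_Aged. Its rise was 8.45-fold and 5.4-fold. S100a13, known to help export Fgf1 from cells, read 438 to 663 in WT_Adult, 2122 and 2623 in KO_Adult and 1060 to 2077 in KO_Aged, a rise of 4.09-fold and 2.44-fold. All of these were called on the arrays with control signal too, Serpinb6a at 1.24 (SE 0.10), S100a4 at 2.49 (SE 0.31) and S100a13 at 1.82 (SE 0.12).

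Of the 20 acute phase, serpin and S100 genes tested, 5 were shared, all higher, and 10 were higher in KO_Aged and none lower, where 0.767% of all genes were shared and higher and 10.7% higher in KO_Aged. Without KO_Aged 2 and 3 the 10 became 6 and the shared genes 4, and without KO_Adult 1 or 2 the shared genes were 3 or 2. The list's median was 0.90 in KO_Adult and 1.07 in KO_Aged, against 0.04 and 0.05 over all genes. On the arrays with control signal it was only -0.02. There 6 members were higher and 4 lower, against 8.42% and 7.85% of all genes. Serpina3n, an acute phase serpin, read 235 to 887 in WT_Adult, 2138 and 1782 in KO_Adult and 4728 to 8067 in KO_Aged. It was called in KO_Aged (3.42, SE 0.38) and not in KO_Adult (1.65, SE 0.47, adjusted p = 0.107 with limma), and on the arrays with control signal it was lower in the knockout (-0.87, SE 0.20, adjusted p = 0.0235). Neutrophil and macrophage markers were higher in KO_Aged too, but their medians on the arrays with control signal were -1.47 and -0.73. No neutrophil marker was called in KO_Adult. In KO_Aged all 6 were above 0 and 5 were called higher (median 2.40). Their summed intensities were 755 to 2162 in WT_Adult, 1592 to 2205 in KO_Adult and 7649 to 13890 in KO_Aged. Without the 4 arrays apart on the second component 3 were called, with a median of 1.64. Of 21 macrophage markers 13 were higher in KO_Aged (median 1.27) and 1, Gpnmb, in KO_Adult (median 0.68), with sums of 9225 to 21420, 17180 to 23470 and 19020 to 36800. Without KO_Aged 2 and 3 the 13 became 4 and Gpnmb was no longer shared, as also without either KO_Adult array. Over all genes 10.7% were higher in KO_Aged and 0.82% in KO_Adult. Their part in the list's result was not tested, and in whole muscle fewer cells of a type and less RNA per cell cannot be told apart.

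Follistatin, which binds and blocks activins and myostatin, kept its shared call whichever of the 11 arrays was left out. Fst read 52.4, 65.2, 47.8, 35.3 and 65.8 in WT_Adult, 247 and 257 in KO_Adult, and 442, 275, 337 and 338 in KO_Aged. The groups were well apart, with a rise of 2.34 (SE 0.23) in KO_Adult and 2.64 (SE 0.18) in KO_Aged. With control signal, Fst read 246, 174, 170, 172 and 153 in WT_Aged and 291, 319 and 133 in KO_Adult, so the groups overlapped and the difference was not called (0.40, SE 0.27, adjusted p = 0.330 with limma). It was the 1 shared member of 32 growth factor and myostatin pathway genes tested.

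Several of the remaining rises encode surface, secreted and trafficking proteins. Egf, epidermal growth factor, read 301 to 574 in WT_Adult and 1124 to 1676 over the knockout arrays (1.71, SE 0.25, and 1.51, SE 0.20). Cd59a, which keeps complement from forming pores and is held in the membrane by a glycolipid anchor, read 404 to 443 in WT_Adult and 1037 to 1379 over the knockout arrays (1.52, SE 0.18, and 1.54, SE 0.15). Pgap2, an enzyme that remodels such anchors, rose 3.61-fold and 4.5-fold but was not called on the arrays with control signal (0.78, SE 0.44, adjusted p = 0.246 with limma). Il13ra1, a receptor subunit for interleukins 4 and 13, read 65.1 to 101 in WT_Adult, 228 and 212 in KO_Adult and 323 to 763 in KO_Aged. Its rise was 1.63 (SE 0.30) and 2.81 (SE 0.24) on the log2 scale, and all 4 of its other probe sets were higher in both comparisons.

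Ift122, a subunit of the transport complex of cilia, read 80.1 to 131 in WT_Adult and 432 to 709 over the knockout arrays (2.68, SE 0.28, and 2.35, SE 0.23), and gave 2.54 (SE 0.27) on the arrays with control signal. Fez1, an adaptor of kinesin motors, rose by 1.57 (SE 0.31) and 2.64 (SE 0.25) on the log2 scale. Cpne2, a copine that binds membranes with calcium, rose 3.38-fold and 4.16-fold, and Ccdc91, a Golgi accessory protein, 2.88-fold and 3.01-fold. These 4 kept their call on the arrays with control signal. Aig1 was 3.4-fold and 3.03-fold higher on the 11 arrays but -0.05 (SE 0.17) on the others. Npnt, nephronectin, a matrix ligand of integrins, rose 3.51-fold and 4.9-fold by the probe set used. Of its 4 other probe sets, 2 had the same sign in both comparisons and 2 did not.

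Matrix genes as a list moved little in common. Of 49 collagen and matrix genes tested, Npnt and Mmp2 were shared and higher; in KO_Aged 10 were higher and 5 lower, with medians of -0.01 in KO_Adult and 0.16 in KO_Aged. Over all genes 0.767% were shared and higher and 10.7% called each way in KO_Aged, so the 5 lower are near the share of all genes. No matrix gene was shared without either KO_Adult array, and without KO_Aged 2 and 3 there were 6 higher and 3 lower in KO_Aged. Mmp2, a gelatinase, read 507 to 821 in WT_Adult and 1086 to 1516 over the knockout arrays (1.06, SE 0.22, and 0.85, SE 0.18), was shared under only 2 of the 11 omissions, and was not called on the arrays with control signal (0.51, SE 0.34). Mmp3, a stromelysin, was higher in KO_Aged (3.41, SE 0.41) and just missed the threshold in KO_Adult (2.21, SE 0.51, adjusted p = 0.0561 with limma). Lama2, the laminin chain of the muscle basement membrane, and Col3a1, a fibrillar collagen, were called in KO_Aged at 0.71 (SE 0.16) and 0.73 (SE 0.18). Timp2, an inhibitor of these proteases, was called in neither comparison (1.05, SE 0.25, and 0.54, SE 0.20).

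Of the 14 cell cycle and replication genes tested, Mcm6 was shared and higher and E2f4 shared and lower, against 0.767% and 0.578% of all genes. Mcm6, a subunit of the replicative helicase, read 47.1 to 94.4 in WT_Adult, 178 and 186 in KO_Adult and 348 to 530 in KO_Aged (1.5, SE 0.28, and 2.5, SE 0.23). E2f4, a repressor of cell cycle genes in resting cells, read 645 to 1088 in WT_Adult, 184 and 152 in KO_Adult and 169 to 504 in KO_Aged (-2.22, SE 0.33, and -1.75, SE 0.27). The helicase subunits Mcm4 and Mcm7 did not follow Mcm6 in KO_Adult, at 0.25 (SE 0.22) and 0.32 (SE 0.25). Mcm4 and the replication clamp Pcna were called in KO_Aged, at 0.76 (SE 0.17) and 1.22 (SE 0.16), and neither was called on the arrays with control signal. The list's medians were 0.22 and -0.04, and Aurka, a mitotic kinase, passed in neither comparison (-0.82, SE 0.36, and -0.86, SE 0.29).

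Among the shared falls other than Des, that of Ybx2 was the largest. Ybx2 is a Y-box RNA-binding protein known from germ cells. It read 479, 536, 1398, 1065 and 1049 in WT_Adult, 43.7 and 31.9 in KO_Adult, and 51.3, 33.0, 46.5 and 30.2 in KO_Aged (-4.17, SE 0.39, and -4.23, SE 0.32). Wild-type and knockout arrays were far apart. With control signal, Ybx2 read 101 to 133 in WT_Aged and 15.1 to 50.3 in KO_Adult, a called fall (-1.54, SE 0.27, adjusted p = 0.00903 with limma).

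Actc1, the cardiac actin that skeletal muscle makes during development and regeneration, read 16120, 17270, 19100, 14190 and 15150 in WT_Adult, 2203 and 2712 in KO_Adult, and 1147, 1876, 2614 and 980 in KO_Aged. The fall was 6.76-fold (-2.76, SE 0.33) and 11-fold (-3.45, SE 0.27). With control signal, Actc1 read 6447 to 8479 in WT_Aged and 3135 to 4327 in KO_Adult, a fall of 2.07-fold (-1.05, SE 0.15). It was the 1 shared member of 9 developmental and cardiac sarcomere genes tested, of which 6 were higher and 1 lower in KO_Aged, against 10.7% each way over all genes. Myod1, the myogenic transcription factor, read 2234 to 3066 in WT_Adult and 857 to 1604 over the knockout arrays (-1.08, SE 0.24, and -1.30, SE 0.19). Its KO_Adult adjusted p of 0.0481 from limma was close to the threshold and the shared call held under 2 of 11 omissions, but it was called on the arrays with control signal too (-0.98, SE 0.17).

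Fgf1, acidic fibroblast growth factor, read 2550, 2191, 2859, 2244 and 2450 in WT_Adult, 641 and 447 in KO_Adult, and 731, 426, 539 and 441 in KO_Aged. The arrays within each group were close together and the groups apart, at -2.11 (SE 0.23) and -2.26 (SE 0.19), with -2.48 (SE 0.35) on the arrays with control signal. Fzd5, a Wnt receptor, read 155, 340, 387, 266 and 197 in WT_Adult, 21.9 and 29.6 in KO_Adult, and 40.0, 12.2, 43.1 and 37.4 in KO_Aged (-2.87, SE 0.40, and -2.78, SE 0.32). Its knockout values lie at the level of the Y-linked genes. Tspan12, a tetraspanin of Norrin signalling in vessels, fell by 2.14 (SE 0.37) and 1.94 (SE 0.30) on the log2 scale, and Vegfb, a growth factor that acts on Flt1, fell 2.84-fold and 3.04-fold. Both were called on the arrays with control signal, at -1.03 (SE 0.25) and -0.67 (SE 0.16).

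Chac1, which breaks down glutathione, fell 5.31-fold and 3.72-fold, and Srxn1, which reactivates peroxiredoxins, 3.57-fold and 3.53-fold. Srxn1 spanned 1133 to 3225 over the 6 knockout arrays and 4496 to 6726 in WT_Adult. Pde2a, a cyclic nucleotide phosphodiesterase, fell 3.93-fold and 6.25-fold, and Ppp1r1a, an inhibitor of protein phosphatase 1, 3.37-fold and 2.88-fold. Car2, a carbonic anhydrase, was at -1.94 (SE 0.31) and -1.62 (SE 0.25) on the log2 scale. All of these were called on the arrays with control signal, Car2 with a larger fall there (-2.62, SE 0.19). Stk39, a kinase that regulates ion cotransporters, fell by 2.54 (SE 0.50) and 1.66 (SE 0.40) on the log2 scale by the probe set used, but only 1 of its 2 other probe sets had the same sign in both comparisons. With the mean of all its probe sets Stk39 was not called for the mean of both knockout groups (-0.73, adjusted p = 0.0875 with limma).

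Endothelial markers were the cell type list with the most shared genes. Of 22 tested, 9 were called lower in both comparisons, Cdh5, Flt1, Tie1, Esam, Sox18, Aqp1, Egfl7, Robo4 and Nos3, against 0.578% of all genes. In KO_Adult 9 were lower and in KO_Aged 15, against 0.672% and 10.7% of all genes, and none was higher. The median was -1.0 in KO_Adult and -0.97 in KO_Aged, and all 22 were below 0 in each. Among the 8 other arrays 14 of 22 were lower, against 7.85% of all genes, and none higher. The median there was -0.64, with all 22 below 0. Their summed intensity was 22490 to 27740 in WT_Adult, 10870 to 12580 in KO_Adult and 9817 to 12140 in KO_Aged, and on the other arrays 14530 to 17390 in WT_Aged and 9264 to 10100 in KO_Adult, so knockout and wild-type sums did not overlap in either set. The shared count was 3 after median centring, 4 without the 4 arrays apart on the second component and 0 without either KO_Adult array. In those settings all 22 stayed below 0, save 1 gene in KO_Aged without the 4 arrays. Smooth muscle and pericyte markers other than Des gave no shared call, and the 13 together had medians of -0.60 and -0.61 with 5 lower in KO_Aged, Des among them. The part of cell number in these values was not tested.

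**Figure D4:**
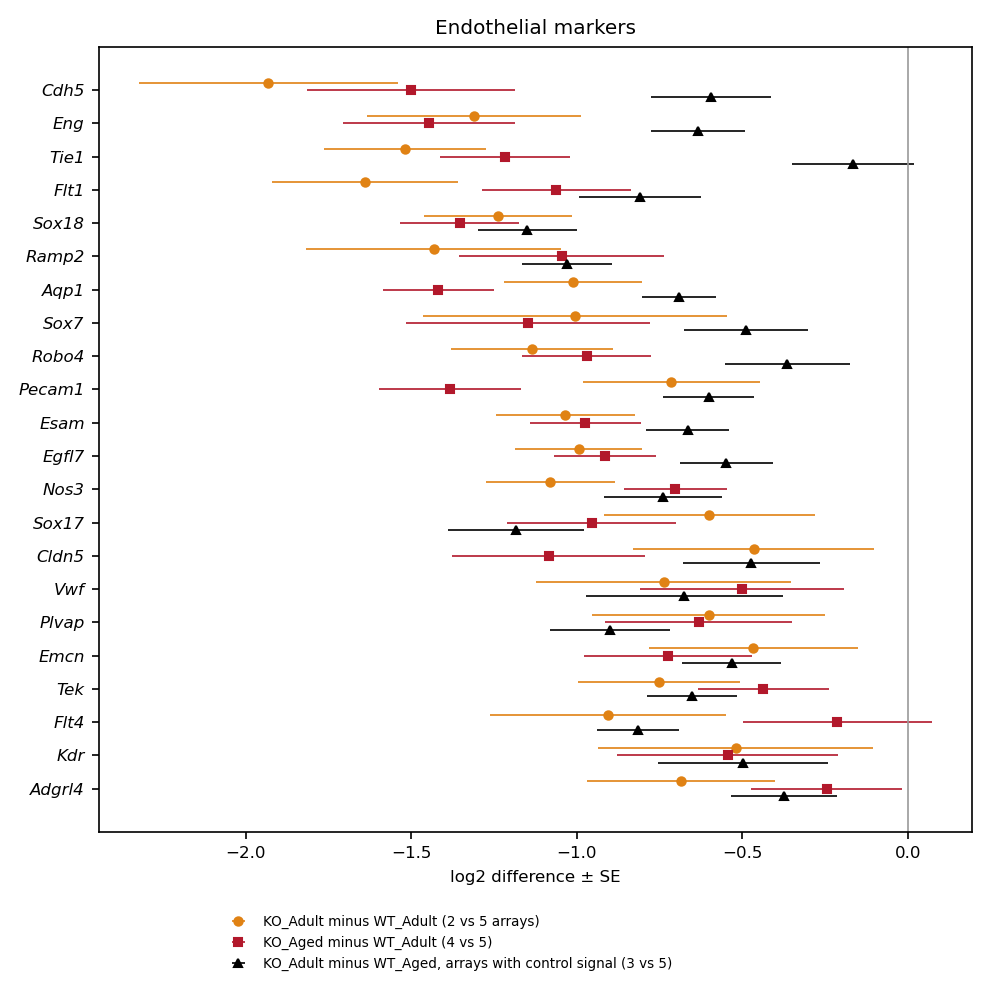
Log2 difference from wild-type muscle, with SE, for the 22 endothelial markers tested, in KO_Adult against WT_Adult (2 against 5 arrays), KO_Aged against WT_Adult (4 against 5) and, on the arrays with control signal, KO_Adult against WT_Aged (3 against 5). Every point lies to the left of 0, with medians of -1.0, -0.97 and -0.64.

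Promoters of the shared endothelial genes are shown because these genes fell together; 5 of the 9 are in the RefSeq promoter table. The ETS core AGGAAG, read on either strand as AGGAAG or CTTCCT and given in capitals, is a motif of factors known from endothelial genes. Each sequence is the 250 bases before the listed transcription start on build GRCm38.p6, written in the direction of the gene. Tie1 is the minus strand of chr4:118489850-118490099, Flt1 the minus strand of chr5:147726012-147726261, Egfl7 the plus strand of chr2:26580833-26581082 (the first of 3 listed starts), Aqp1 the plus strand of chr6:55336049-55336298 and Robo4 the plus strand of chr9:37401722-37401971.
Tie1: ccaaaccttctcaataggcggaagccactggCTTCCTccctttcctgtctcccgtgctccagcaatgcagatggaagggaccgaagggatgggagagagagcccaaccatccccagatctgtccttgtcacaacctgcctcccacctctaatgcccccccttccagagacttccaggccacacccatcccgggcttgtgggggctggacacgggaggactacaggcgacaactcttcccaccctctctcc
Flt1: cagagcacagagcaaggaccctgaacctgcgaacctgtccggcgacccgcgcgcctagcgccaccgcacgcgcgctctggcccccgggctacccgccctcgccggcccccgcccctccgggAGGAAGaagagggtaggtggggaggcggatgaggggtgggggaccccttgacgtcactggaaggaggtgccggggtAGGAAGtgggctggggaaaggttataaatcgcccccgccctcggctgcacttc
Egfl7: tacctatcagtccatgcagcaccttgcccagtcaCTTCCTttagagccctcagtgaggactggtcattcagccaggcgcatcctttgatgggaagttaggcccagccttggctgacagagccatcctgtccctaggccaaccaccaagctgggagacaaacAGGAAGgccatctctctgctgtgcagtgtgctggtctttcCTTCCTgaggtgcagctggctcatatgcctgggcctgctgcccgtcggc
Aqp1: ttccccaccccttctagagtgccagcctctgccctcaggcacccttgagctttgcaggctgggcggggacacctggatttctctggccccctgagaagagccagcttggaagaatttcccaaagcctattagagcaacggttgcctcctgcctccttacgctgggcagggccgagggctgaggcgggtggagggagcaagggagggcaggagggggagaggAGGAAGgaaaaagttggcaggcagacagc
Robo4: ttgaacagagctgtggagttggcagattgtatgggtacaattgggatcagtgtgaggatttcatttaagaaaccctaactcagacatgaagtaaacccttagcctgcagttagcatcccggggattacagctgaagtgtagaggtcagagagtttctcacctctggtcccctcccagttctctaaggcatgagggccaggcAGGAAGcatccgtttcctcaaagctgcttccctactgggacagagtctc
Each of the 5 held the motif, Egfl7 with 3 matches, Flt1 with 2 and the others with 1. It was in 29.2% of all 27025 promoters and in 26.9% of the 6079 that belonged to tested genes. Among shared genes it was in 31.0% of the 29 lower and 38.6% of the 44 higher ones found in the table. The MCAT motif CATTCC, of muscle genes, was in 6.9% of the lower and 11.4% of the higher ones, against 10.5% of tested genes. The E-box CAGCTG, bound by myogenic factors, was in 20.7% and 13.6%, against 11.1%. A match describes the letters only, and binding was not measured.

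The endothelial genes shown above encode receptors, junction and channel proteins. Tie1, a receptor tyrosine kinase of endothelium, read 412, 367, 415, 303 and 456 in WT_Adult, 135 and 99.1 in KO_Adult, and 195, 171, 122 and 154 in KO_Aged (-1.52, SE 0.24, and -1.22, SE 0.20). With control signal, Tie1 read 69.4 to 92.4 in WT_Aged and 55.5 to 94.7 in KO_Adult, overlapped, and was not called (-0.17, SE 0.18, adjusted p = 0.559 with limma). Aqp1, the water channel of capillaries, read 8668, 9177, 12210, 9928 and 8788 in WT_Adult, 5666 and 4738 in KO_Adult, and 4246, 3040, 3689 and 3395 in KO_Aged. It was 2.02-fold and 2.67-fold lower, and 1.62-fold lower on the other arrays.

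Flt1, a VEGF receptor, read 504 to 891 in WT_Adult, 177 and 231 in KO_Adult and 243 to 410 in KO_Aged (-1.64, SE 0.28, and -1.06, SE 0.23). Egfl7, a matrix protein that endothelium secretes, read 715 to 1030 in WT_Adult and 423 to 611 over the knockout arrays (-0.99, SE 0.19, and -0.91, SE 0.15). Robo4, a guidance receptor of vessels, had an adjusted p of 0.0423 in KO_Adult from limma and no call on the arrays with control signal (-0.36, SE 0.19). Cdh5, the cadherin of endothelial junctions, read 513 to 1184 in WT_Adult, 230 and 170 in KO_Adult and 218 to 483 in KO_Aged (-1.93, SE 0.39, and -1.50, SE 0.31), and just missed the threshold on the other arrays (-0.59, SE 0.18, adjusted p = 0.054 with limma). Sox18, a transcription factor of vessels, was at -1.24 (SE 0.22), -1.35 (SE 0.18) and -1.15 (SE 0.15) in the 3 comparisons. Esam, a junction adhesion molecule, and Nos3, the endothelial nitric oxide synthase, were at -1.03 (SE 0.21) and -1.08 (SE 0.19) in KO_Adult.

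The X chromosome held 210 of the tested genes (2.82%) and 8 of the 57 shared higher genes, and none of the shared lower ones. They were Plp2, Il13ra1, Pdk3, Bex1, Sat1, Srpx, Acot9 and Hprt, and apart from Il13ra1 they are named here after their values were seen. Plp2, a membrane protein of the endoplasmic reticulum, read 1076, 1001, 1159, 1148 and 1176 in WT_Adult, 3349 and 3339 in KO_Adult, and 2806, 3873, 3687 and 3057 in KO_Aged. The groups were far apart for the size of their spread, at 1.51 (SE 0.17) and 1.56 (SE 0.14). Hprt, the purine salvage enzyme often used as a reference gene, read 837 to 900 in WT_Adult and 1272 to 1488 over the knockout arrays (0.76, SE 0.16, and 0.64, SE 0.13), but 0.04 (SE 0.11) on the arrays with control signal. Pdk3, an inhibitor of pyruvate dehydrogenase, rose by 2.16 (SE 0.43) and 1.48 (SE 0.35) on the log2 scale. Of the 210 genes 67.6% were above 0 for the mean of both knockout groups, where 4037 of all 7436 were. Chromosome 3, with 374 tested genes (5.03%), held 9 shared higher genes and 1 shared lower one. There 65.5% of genes were above 0 for the mean of both knockout groups. By that measure a high share was not particular to the X chromosome. For the same mean 26 X-linked genes were called higher and 4 lower, against 40 and 18 on chromosome 3. Among the 8 other arrays 29 X-linked genes were higher and 7 lower, against 39 and 36 on chromosome 3. Of all genes 8.42% were higher and 7.85% lower on those arrays. Whether these counts differ between chromosomes was not tested. Xist read 1592 to 5049 on all 19 arrays by its brightest probe set and the Y-linked genes at most 46.7, so all 19 arrays had the same pattern of sex-linked transcripts.

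Knockout muscle of the 2 ages differed in 5 genes on the 11 arrays (0.0672%), 3 higher (0.0403%) and 2 lower (0.0269%) in the older, with 1622 at an unadjusted p under 0.05. This comparison uses no wild-type array. Clec2d, a ligand of an NK cell receptor, read 1058 and 1264 in KO_Adult and 163, 143, 172 and 111 in KO_Aged, against 709 to 1535 in WT_Adult (-2.99, SE 0.34, adjusted p = 0.0126 with limma). Older knockout arrays were below all others. Mthfd2, the mitochondrial folate enzyme, read 74.3 and 124 in KO_Adult and 573, 537, 1090 and 454 in KO_Aged, with WT_Adult between them at 181 to 289 (2.43, SE 0.33, adjusted p = 0.0244). Ints6, a subunit of the Integrator complex that processes small nuclear RNA, was at 1.85 (SE 0.24), Csf2ra, a receptor subunit for GM-CSF, at 1.64 (SE 0.24), and Serhl, a serine hydrolase, at -1.30 (SE 0.20). The count ranged from 0 without KO_Adult 1 to 97 without KO_Aged 1.

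The other lists held at most 1 shared gene each. Their counts stand against 1.49% of all genes called in KO_Adult, and 10.7% called higher and 10.7% lower in KO_Aged. Of 64 respiratory chain genes none was called in KO_Adult, and 1 was higher and 5 lower in KO_Aged; of 33 glycolysis and glycogen genes 1 was higher and 9 lower in KO_Aged, and of 34 fatty acid genes 1 higher and 6 lower, with none of either called in KO_Adult. Of 18 fast fibre genes 1 was lower in KO_Aged and none was called in KO_Adult. Among 25 chaperones 6 were lower and 1 higher in KO_Aged, and on the arrays with control signal 9 were lower, where 7.85% of all genes were. None of the 25 was called in KO_Adult, where 2 were above 0 and the median was -0.65, against 0.04 for all genes. In KO_Aged 7 were above 0 with a median of -0.29, and on the arrays with control signal 2 with a median of -0.54. Of 27 cytokine and chemokine genes 14 were higher and 2 lower in KO_Aged, with none called in KO_Adult. Of 21 genes of the ATF4 stress response 6 were higher and 3 lower in KO_Aged. On the arrays with control signal these 2 lists had 6 and 7 genes lower and none higher. Of 26 Z-disc and costamere genes, which lie where desmin attaches, Myoz2 was shared, and 1 was higher and 3 lower in KO_Aged. Of 12 ankyrin, LIM and Xin genes none was called in KO_Adult, and 2 were higher and 1 lower in KO_Aged. Of 11 intermediate filament and linker genes only Des was shared. The list medians of Z-disc, fast fibre and intermediate filament genes lay between -0.07 and 0.09 in both comparisons, near those of all genes.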

How the data were processed

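Per the submitters' processing notes the authors made the deposited intensity values with MAS5; its version and settings are not given in the sources used here. Of 22690 probe sets, 64 are controls, 20380 have 1 gene symbol in the platform annotation, 691 several and 1555 none. The deposited intensities of the 11 arrays were turned to log2(intensity + 5.887), where 5.887 is their 10th percentile, and quantile normalized; the array medians had spanned 0.624 on the log2 scale. Each of 12393 genes was represented by its brightest probe set on average, and the upper 60% of genes by mean, 7436, were tested. limma 3.58.1 in R 4.3.3 fitted 3 group means (8 residual degrees of freedom, prior 3.852), with Benjamini-Hochberg adjustment over all genes. The other 8 arrays were normalized and fitted separately with the same probe sets, so levels are not compared between the sets. No pair of arrays held identical values. The number of arrays limits the precision. The method was tested on simulated data.

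The members and lists were chosen with earlier results of these data known, and earlier work had already compared the genotypes within each kind of array, so genes shared here are no independent support for it. Named genes are Des, the 15 largest rises and 15 largest falls (by the smaller of the 2 differences) among shared genes whose arrays do not overlap, up to 6 genes called in each direction between knockout ages, and from each list with at least 2 shared genes the 6 (4 for cell markers) with the smallest p for the mean of both knockout groups. Evi2a, Cyfip2, Deaf1, Sytl2, Isoc1, Rab13, Flt1, Esam, Robo4, Nos3, Myod1, Gpnmb and the X-linked genes were named after their values were seen. Gene symbols and chromosomes are RefSeq's.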

Additional observations from a re-analysis of the deposited data

Results flagged for a closer look

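Over 73 named genes and the 3 groups of 4 or 5 arrays, 219 groups in all, 12 had 1 array far from the others, measured as its gap to the nearest array as a share of the group's range; chance alone gives about 1 in 20. WT_Adult 4 had the most, 4: lowest for Ppp1r1a (794 against 1082 to 1229, share 0.713), Serpina3n (235 against 738 to 887, share 0.812) and Tie1 (303 against 367 to 456, share 0.785), and highest for Acot9 (2586 against 1875 to 2079, share 0.745). KO_Aged 2 was lowest for Vegfb (644 against 1137 to 1165, share 0.937) and Serpina3n (4728 against 6747 to 8067, share 0.83). Mcm4 was lowest on WT_Adult 5 (123 against 130 to 148, share 0.757) and highest on KO_Aged 4 (320 against 166 to 222, share 0.954). Egf was lowest on WT_Adult 3 (301 against 457 to 574, share 0.734) and Srpx lowest on KO_Aged 1 (75.4 against 109 to 161, share 0.898). On the arrays with control signal, WT_Aged 1 was highest for Fst (246 against 153 to 174, share 0.768) and WT_Aged 2 highest for Serhl (290 against 259 to 276, share 0.835).

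Knockout muscle of the 2 ages differed by limma's test of KO_Aged against KO_Adult in 5 genes; with no older wild-type array among the 11, whether the effect of the knockout differs with age was not tested. Mthfd2 (2.43), Ints6 (1.85) and Csf2ra (1.64) were higher in the older knockout, and Clec2d (-2.99) and Serhl (-1.30) lower, on the log2 scale. On the arrays with control signal, Clec2d read 365 to 1300 in WT_Aged and 569 to 955 in KO_Adult, and Mthfd2 222 to 416 and 131 to 170. Ints6 read 147.5 to 273.4 in WT_Aged and 326.9 to 652.2 in KO_Adult, and was called higher in that younger knockout (1.19, SE 0.28). Csf2ra read 57.4 to 116 and 58.6 to 68.0, and Serhl 259 to 290 and 295 to 561.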

How the results depend on the processing

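The 100 shared genes were recounted under each setting. With no normalization between arrays there were 198 calls in KO_Adult and 67 between knockout ages. With no filter on dim genes there were 41 in KO_Adult, 424 for the mean of both knockout groups, 0 between ages and 500 on the arrays with control signal, with 33 shared genes and 25 of them called on those arrays. Among the upper 30% of genes, which tests fewer genes, there were 886 in KO_Aged, 512 for the mean, 34 between ages and 66 shared. Between ages the count was also 55 with a pseudocount of 64, 31 with the mean of all probe sets and 14 with a robust prior that follows intensity. Array weights, whose estimation did not converge, gave 645 in KO_Adult, 2656 in KO_Aged, 1830 for the mean, 1257 between ages, 2696 with control signal, 420 shared and 264 of these called there. Without KO_Aged 2 and 3 there were 709 in KO_Aged, 528 for the mean and 10 between ages. With all 19 arrays and control signal as a term there were 494 in KO_Adult, 1520 for the mean, 730 between ages and 327 shared. Without the 4 arrays apart on the second component, a setting chosen after seeing the data as were the list counts by setting, there were 680 between ages. The cause of these shifts was not tested, other than the fewer genes or arrays named.

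Leaving out 1 array at a time, the counts ranged from 11 to 135 in KO_Adult, 940 to 1574 in KO_Aged, 10 to 106 for shared genes, 204 to 1044 for the mean, 0 to 97 between ages and 463 to 1182 with control signal, and from 9 to 82 for shared genes called there. After median centring the median gene lay at 0.149 in KO_Adult (0.044 after quantile normalization) and 0.141 in KO_Aged (0.051), with 57 higher and 26 lower, and 853 higher and 495 lower. For the mean it gave 436 and 230, and with control signal 825 and 472. Of 73 named genes, the mean of both knockout groups turned sign for Csf2ra with no normalization (-0.092) and on leaving out 1 array (-0.050 to 0.15), and for Serhl with the mean of all probe sets (0.21). No paired analysis was possible because the labels match no knockout array among the 11 to a wild-type one. With the title code shared by WT_Adult 3, 4 and 5 as a random block 69 genes were shared, all among the 100. With 2 KO_Adult arrays, a p that misses the threshold does not show that a gene did not differ.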

Other observations

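Of 21 macrophage markers 13 were called higher in KO_Aged than in WT_Adult and none lower, with a median of 1.27, where 10.7% of all genes were higher. On the arrays with control signal, where the wild-type muscles were the older ones, 20 were below 0 and none was called, with a median of -0.73 for KO_Adult against WT_Aged and summed intensities that overlapped (10090 to 32880 in WT_Aged, 11430 to 17910 in KO_Adult). The 6 neutrophil markers had a median of 2.40 in KO_Aged, and of 0.72 in KO_Adult against WT_Adult, with none called. On the arrays with control signal the median was -1.47, with all 6 below 0 and 1 called lower. S100a8 and S100a9, the calprotectin subunits, were at 3.68 and 3.93 in KO_Aged and at -1.61 and -1.85 on the other arrays. Age and genotype cannot be told apart in KO_Aged against WT_Adult or on the arrays with control signal. Without the 2 KO_Aged arrays of high Gapdh ratio 4 macrophage markers were called in place of 13.

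Gpnmb, a glycoprotein of lysosome-rich macrophages, was the 1 macrophage marker above 0 on the arrays with control signal (1.93, SE 0.74, adjusted p = 0.105 with limma). Its 3 KO_Adult arrays there read 148, 133 and 1719, so that value rests on 1 array; on the 11 arrays it read 74.0 to 120 in WT_Adult and 154 to 381 over all 6 knockout arrays.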
